A study of Mus musculus with 42 samples.

Results

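A list of 10 genes of type 1 conventional dendritic cells was followed across 42 MC38 tumors: the receptor genes Xcr1, Clec9a and Flt3, the transcription factor genes Batf3, Irf8 and Zbtb46, the integrin gene Itgax, the ligand genes Xcl1 and Flt3l and, for contrast, the type 2 gene Cd209a. They were listed by symbol, and 9 of the 10 were found among the 26811 identifiers of the count table. Flt3l was not analysed here. All 9 passed the filter on low counts. MC38 is a colon carcinoma line of C57BL/6 origin, and 500000 of its cells were placed under the skin of female CC075/UncJ x C57BL/6J F1 mice aged 8 to 12 weeks, so every group shared one host genotype and one tumor line. The isotype group (n = 5) received control antibodies only. The aPD1 group (n = 6) received one dose of 200 ug of antibody against PD-1 together with the control antibodies for the blockades. The aPD1 + aGM-CSF group (n = 9) also received repeated doses of 100 ug of antibody against GM-CSF from engraftment on. The aPD1 + aIL2RB group (n = 11) received repeated doses of 200 ug of antibody against IL2RB in the same way, and the aPD1 + aGM-CSF + aIL2RB group (n = 11) received both. The PD-1 or isotype dose was given when tumors measured 75 to 110 mm3, and whole tumors were harvested 48 h later for poly(A) RNA sequencing. The antibodies were injected into the abdomen, so that blockade was not limited to one cell type.

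Type 1 conventional dendritic cells take up material from dying tumor cells and present it to CD8 T cells, which is promoted by the dead-cell receptor that Clec9a encodes. Their development needs IRF8 and BATF3, and the growth factor receptor FLT3 with its ligand sustains them and the other conventional dendritic cells. XCR1, which these cells carry, is the receptor for XCL1, a chemokine that natural killer (NK) cells and activated CD8 T cells release. In whole tumors a lower level of a gene can come from fewer cells of a type or from less RNA per cell, and these cannot be told apart.

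Total counts ran from 7155486 to 24101674 per tumor, with a median of 20215383 and the next lowest tumor at 15109227. Values below are CPM, that is counts scaled to library size, after TMM normalization, and differences are log2 fold changes from an edgeR quasi-likelihood fit over 16932 genes and all 42 tumors, given ± SE and called at an adjusted p under 0.05. The tumors carry replicate numbers as separate biological replicates. They were also divided by those numbers into 2 sets of 22 and 20, after a tendency seen in the data that the labels do not name. The sets overlapped on the first principal component of the residuals from group means, from -57.98 to 18.49 in the first and from -11.05 to 41.79 in the second, and results were also computed within each set. Since the sets were drawn from these data, p-values for differences between them are not independent of the split. The MC38 gene Shisal2b was detected in every tumor, from 8.80 to 31.3 CPM. The leukocyte gene Ptprc, which encodes CD45, was 0.97 ± 0.25 higher with aPD1 than with isotype (adjusted p = 0.0130). Against aPD1 it was 0.81 ± 0.21 lower in aPD1 + aGM-CSF (adjusted p = 0.00797), 1.29 ± 0.20 lower in aPD1 + aIL2RB (adjusted p = 5.20e-06) and 0.98 ± 0.20 lower with both blockades (adjusted p = 0.000278).

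The members did not move as one group. Xcr1, Batf3, Irf8 and Xcl1 were lower in both groups given aIL2RB than in aPD1 alone, and Itgax was lower in aPD1 + aIL2RB. Clec9a stayed between 10.9 and 17.7 CPM in all 42 tumors and was called in none of the 10 pairs of groups. Zbtb46 was slightly higher in each of the 3 blockade groups than in aPD1. Flt3 and Cd209a were low and were called nowhere. Per kb of exon the median levels over the 42 tumors ran from 9.15 CPM for Itgax and 6.64 for Irf8 through 4.27 for Clec9a, 1.75 for Zbtb46 and 0.989 for Xcl1 to 0.508 for Batf3, 0.432 for Xcr1, 0.164 for Flt3 and 0.0709 for Cd209a.

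**Figure D1:**
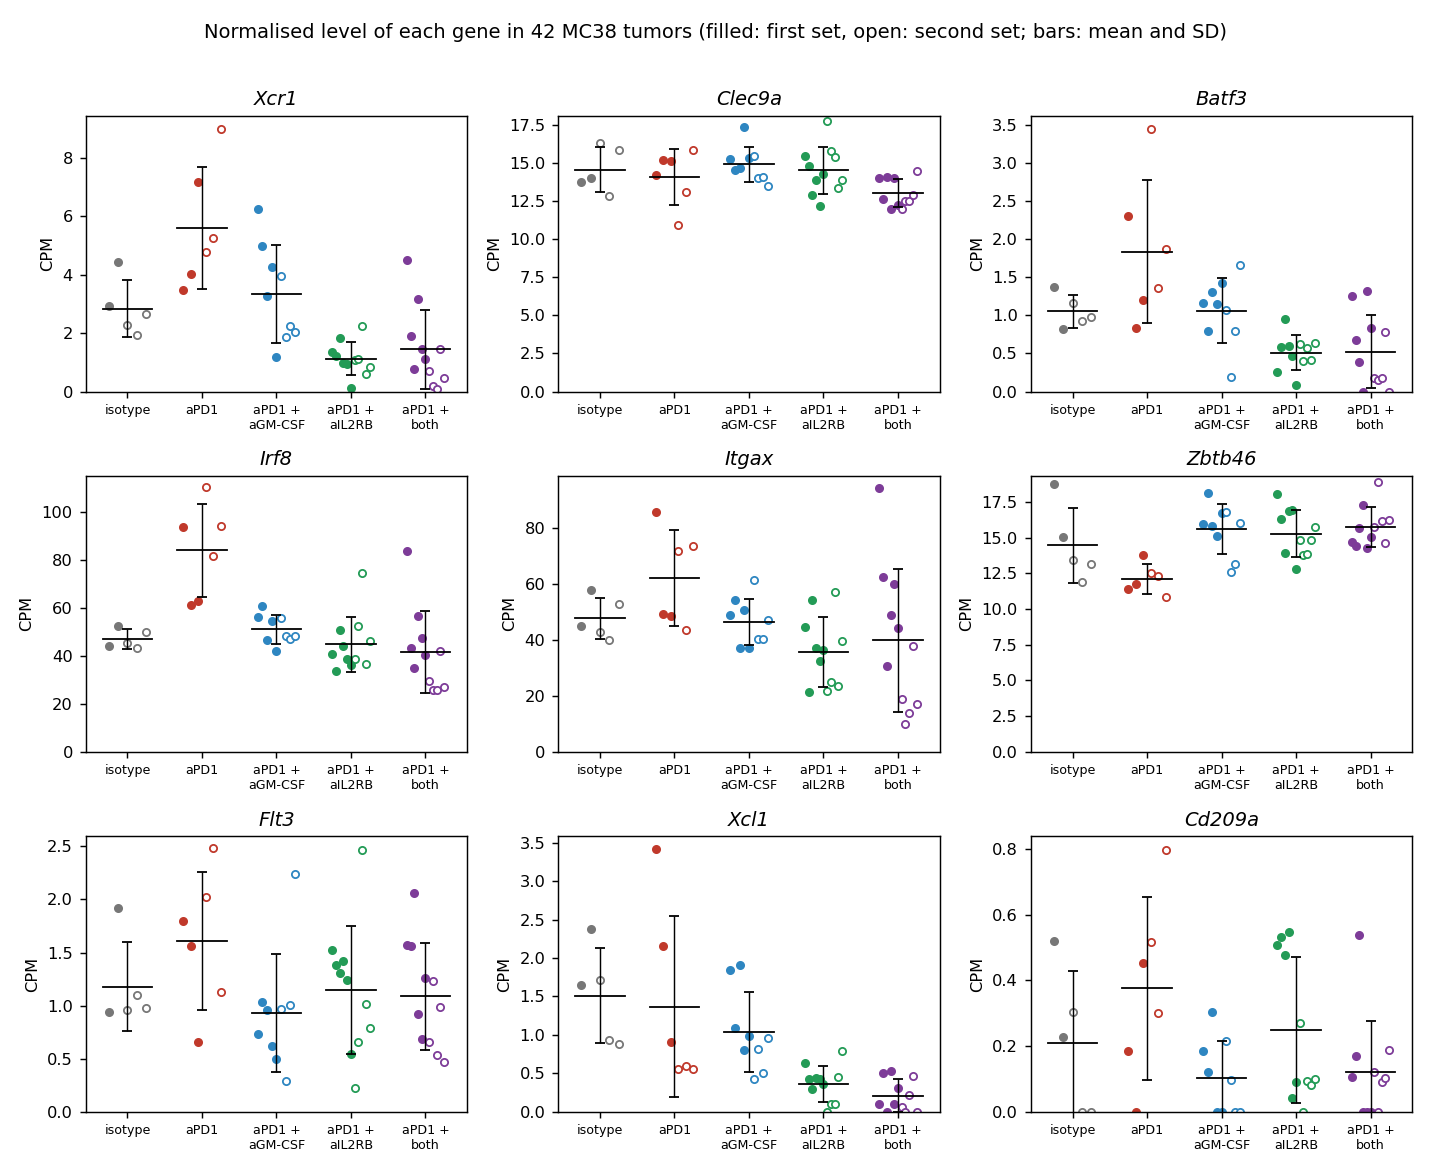
TMM-normalised CPM (y axis, from 0) of the 9 measured genes in each treatment group (x axis, with aPD1 + both standing for aPD1 + aGM-CSF + aIL2RB). Each point is a tumor, filled for the first set and open for the second, and bars show the mean and SD. Xcr1 in aPD1 + aIL2RB stays at or below 2.23 CPM, under every aPD1 tumor, while Clec9a lies between 10.9 and 17.7 CPM throughout.

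Promoters are shown for the 4 genes that were lower in both groups given aIL2RB than in aPD1, Xcr1, Batf3, Irf8 and Xcl1, and for Clec9a, which was called nowhere. Each run holds 250 bases before and 50 after a RefSeq start (GRCm38.p6), 5′ to 3′ on the gene's strand: chr9:123861980-123862279 on the minus strand for Xcr1, chr1:191098164-191098463 on the plus strand for Batf3, chr8:120736108-120736407 on the plus strand for Irf8, chr1:164935473-164935772 on the minus strand for Xcl1 and chr6:129408612-129408911 on the plus strand for Clec9a. Capitals mark matches to TTCNNNGAA, the letters of an interferon-gamma activated site.
Xcr1: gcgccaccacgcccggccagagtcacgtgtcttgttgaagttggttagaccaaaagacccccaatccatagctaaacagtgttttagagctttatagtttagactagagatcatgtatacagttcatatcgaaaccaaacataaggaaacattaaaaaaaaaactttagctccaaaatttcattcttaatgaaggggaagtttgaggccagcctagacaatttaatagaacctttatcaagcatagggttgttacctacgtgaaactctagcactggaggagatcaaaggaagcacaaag
Batf3: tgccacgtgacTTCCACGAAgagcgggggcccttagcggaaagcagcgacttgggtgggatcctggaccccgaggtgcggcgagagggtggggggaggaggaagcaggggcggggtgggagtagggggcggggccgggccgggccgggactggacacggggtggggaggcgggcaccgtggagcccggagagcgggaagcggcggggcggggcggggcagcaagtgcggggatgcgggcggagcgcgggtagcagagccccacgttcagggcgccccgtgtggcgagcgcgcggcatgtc
Irf8: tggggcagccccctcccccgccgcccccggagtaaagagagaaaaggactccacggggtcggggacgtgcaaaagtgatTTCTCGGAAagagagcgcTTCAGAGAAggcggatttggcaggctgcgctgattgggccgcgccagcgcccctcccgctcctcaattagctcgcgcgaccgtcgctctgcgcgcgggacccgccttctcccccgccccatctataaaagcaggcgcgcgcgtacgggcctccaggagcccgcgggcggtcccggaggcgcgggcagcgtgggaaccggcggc
Xcl1: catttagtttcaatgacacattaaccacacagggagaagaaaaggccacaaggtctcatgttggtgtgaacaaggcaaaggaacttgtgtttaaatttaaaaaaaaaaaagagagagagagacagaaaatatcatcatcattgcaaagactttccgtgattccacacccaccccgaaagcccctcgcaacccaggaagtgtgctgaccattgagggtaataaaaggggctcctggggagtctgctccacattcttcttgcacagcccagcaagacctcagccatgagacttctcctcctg
Clec9a: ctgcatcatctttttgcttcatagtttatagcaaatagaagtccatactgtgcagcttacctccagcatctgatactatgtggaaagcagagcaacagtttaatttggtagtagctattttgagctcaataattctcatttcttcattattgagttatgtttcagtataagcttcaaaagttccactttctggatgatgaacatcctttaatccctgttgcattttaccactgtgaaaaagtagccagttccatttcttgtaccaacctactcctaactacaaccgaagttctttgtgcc
All 10 listed genes had a promoter in the RefSeq table, with 11 windows since Irf8 had 2. TTCNNNGAA, which reads the same on both strands, was present in 2 of the 11 windows, those printed for Batf3 (1 match) and Irf8 (2 matches that do not overlap), and not in those of Xcr1, Xcl1 or Clec9a. It was present in 8.3% of the 32851 promoter windows of the same length. TGANTCA, the letters of an AP-1 site at which BATF factors also bind, matched in Itgax and Zbtb46 and in 7.81% of all windows. An IRF motif, GAAA followed after 2 free bases by GAAA and searched on both strands, matched only Flt3l among the members and 3.44% of all windows, and GAGGAAGT, a PU.1 motif searched on both strands, matched no member and 3.2% of all windows. A match is a description of the letters and no binding was measured.

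Xcr1 (ENSMUSG00000060509, chr9:123852315-123862029, GRCm38) encodes the XCL1 receptor, which among dendritic cells marks the type 1 lineage. The 5 isotype tumors read 2.93, 4.43, 2.27, 1.94 and 2.66 CPM. With aPD1 the lowest, median and highest values were 3.48, 5.02 and 8.99 CPM. These groups overlapped only through 1 isotype tumor, and the difference of 0.98 ± 0.51 was not called (adjusted p = 0.227). The aPD1 + aGM-CSF tumors had 1.17, 3.26 and 6.27 CPM as lowest, median and highest, and their difference from aPD1, -0.75 ± 0.43, was not called either (adjusted p = 0.256). Tumors given aPD1 + aIL2RB ranged from 0.137 through a median of 1.08 to 2.23 CPM, below every aPD1 tumor. With both blockades the range was 0.0890 to 4.51 CPM around a median of 1.10, and the highest of these tumors overlapped the aPD1 group. Xcr1 was 2.33 ± 0.42 lower in aPD1 + aIL2RB than in aPD1 (adjusted p = 3.99e-05) and 2.01 ± 0.42 lower with both blockades (adjusted p = 0.000316). The counts behind the low values were small, down to 2 and 3 reads.

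Batf3 (ENSMUSG00000026630, chr1:191097847-191108945) encodes a leucine zipper factor that the type 1 lineage requires. Isotype tumors had 1.37, 0.822, 1.16, 0.929 and 0.981 CPM. In aPD1 the range was 0.840 to 3.44 CPM with a median of 1.61, and the difference of 0.81 ± 0.53 was not called (adjusted p = 0.365). The levels were 0.192 to 1.66 CPM (median 1.16) with aPD1 + aGM-CSF, 0.0911 to 0.954 CPM (median 0.569) with aPD1 + aIL2RB and 0 to 1.32 CPM (median 0.392) with both blockades. The gene was at 0 in 2 tumors of the last group. All of these ranges overlapped that of aPD1. Batf3 fell by 1.86 ± 0.44 on the log2 scale from aPD1 to aPD1 + aIL2RB (adjusted p = 0.00127) and by 1.76 ± 0.44 from aPD1 to both blockades (adjusted p = 0.00231), and its value of -0.80 ± 0.46 in aPD1 + aGM-CSF did not pass (adjusted p = 0.260).

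Irf8 (ENSMUSG00000041515, chr8:120736358-120756694) encodes the interferon regulatory factor that sets the type 1 fate and is also used by macrophages, monocytes and B cells. It was the only member called between aPD1 and isotype. The isotype tumors had 44.0, 52.5, 45.2, 43.2 and 49.98 CPM and the aPD1 tumors 61.1 to 111 CPM with a median of 87.7, so the groups did not overlap. Irf8 rose by 0.84 ± 0.21 (adjusted p = 0.0109). With aPD1 + aGM-CSF the levels were 41.9 to 60.6 CPM (median 48.4), again without overlap with aPD1, and Irf8 was 0.72 ± 0.18 lower (adjusted p = 0.00560). The range was 33.6 to 74.6 CPM (median 40.6) with aPD1 + aIL2RB and 25.7 to 83.6 CPM (median 40.4) with both blockades. Against aPD1 these were falls of 0.91 ± 0.17 (adjusted p = 7.53e-05) and 1.03 ± 0.17 (adjusted p = 1.73e-05). Within the first set the aPD1 to isotype difference was 0.59 ± 0.26 and was not called (adjusted p = 0.320), and within the second it was 1.05 ± 0.23 (adjusted p = 0.00227). The difference between the sets was not called (adjusted p = 0.676).

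Clec9a (ENSMUSG00000046080, chr6:129408862-129424763) encodes the receptor for exposed actin filaments of dead cells. Its isotype values were 13.8, 14.01, 16.3, 12.8 and 15.9 CPM. The medians were 14.7 CPM in aPD1, 14.7 CPM in aPD1 + aGM-CSF, 14.3 CPM in aPD1 + aIL2RB and 12.6 CPM with both blockades, and every pair of groups overlapped. The log2 differences were -0.05 ± 0.09 for aPD1 against isotype (adjusted p = 0.785), 0.08 ± 0.08 for aPD1 + aGM-CSF against aPD1 (adjusted p = 0.531), 0.04 ± 0.07 for aPD1 + aIL2RB against aPD1 (adjusted p = 0.713) and -0.11 ± 0.07 for both against aPD1 (adjusted p = 0.297). The highest tumor was 1.62 times the lowest, against 101 times for Xcr1. The lowest Xcr1 value, 0.0890 CPM, rested on 2 reads in 1 tumor, and the next lowest was 0.137 CPM. In 18 of the 42 tumors the deposited Clec9a count was not a whole number, nor was that of Itgax in 8, and where the fractions come from was not tested. The annotated gene also overlaps Clec1b at its start. Whether all reads in this row come from Clec9a was not tested.

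Zbtb46 (ENSMUSG00000027583, chr2:181387762-181459426) encodes a zinc finger factor of conventional dendritic cells that endothelial cells also express. The isotype tumors had 18.7, 15.02, 13.4, 11.9 and 13.2 CPM. Levels with aPD1 were 10.8 to 13.8 CPM (median 12.0), and the difference from isotype, -0.26 ± 0.10, was not called (adjusted p = 0.102). They were 12.6 to 18.2 CPM (median 15.97) with aPD1 + aGM-CSF, 12.8 to 18.04 CPM (median 14.8) with aPD1 + aIL2RB and 14.2 to 18.9 CPM (median 15.7) with both blockades, and only the last group lay wholly above aPD1. Zbtb46 rose over aPD1 by 0.37 ± 0.09 (adjusted p = 0.00437), 0.34 ± 0.09 (adjusted p = 0.00249) and 0.38 ± 0.09 (adjusted p = 0.000859) in these 3 groups. The first of these calls was lost within each set of tumors, at 0.41 ± 0.11 in the first (adjusted p = 0.0741) and 0.30 ± 0.11 in the second (adjusted p = 0.0644). The call with both blockades was lost within the first set, at 0.30 ± 0.11 (adjusted p = 0.0772), and stood at 0.46 ± 0.11 in the second (adjusted p = 0.00123). Across tumors it ran against Ptprc (Pearson r = -0.48, Spearman rho = -0.39, n = 42), and its values after removal of group and set means did so only weakly (r = -0.13).

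Itgax (ENSMUSG00000030789, chr7:128129547-128150657) encodes CD11c, which dendritic cells share with tumor macrophages. Isotype values were 45.0, 57.8, 42.9, 40.1 and 53.0 CPM. The aPD1 tumors ranged from 43.5 to 85.9 CPM (median 60.7), and the difference of 0.38 ± 0.34 was not called (adjusted p = 0.534). The ranges were 37.04 to 61.3 CPM (median 47.0) with aPD1 + aGM-CSF, 21.5 to 57.1 CPM (median 36.4) with aPD1 + aIL2RB and 9.96 to 94.4 CPM (median 37.9) with both blockades, and all overlapped aPD1. The last group held both the lowest and the highest value of the series. Itgax was 0.80 ± 0.28 lower in aPD1 + aIL2RB than in aPD1 (adjusted p = 0.0295), and this call was lost without aPD1 replicate 1 (adjusted p = 0.0886), 4 (0.0669) or 6 (0.0670) or without aPD1 + aIL2RB replicate 2 (0.0501). The call was also lost with the replicate number as a block (adjusted p = 0.203) and within the first set of tumors. The difference of -0.65 ± 0.28 with both blockades was not called (adjusted p = 0.0853) but passed without replicate 1 of that group (-0.86, adjusted p = 0.00995). With aPD1 + aGM-CSF the value was -0.42 ± 0.30 (adjusted p = 0.376).

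Flt3 (ENSMUSG00000042817, chr5:147330741-147400489) encodes the growth factor receptor of dendritic cell precursors and conventional dendritic cells. It was read 5 to 52 times per tumor, from 0.225 to 2.48 CPM. The isotype tumors had 0.944, 1.92, 0.958, 1.10 and 0.981 CPM, and the medians of the treated groups were 1.68 CPM with aPD1, 0.957 CPM with aPD1 + aGM-CSF, 1.24 CPM with aPD1 + aIL2RB and 0.987 CPM with both blockades. All groups overlapped. The value was 0.43 ± 0.43 for aPD1 against isotype (adjusted p = 0.572). Against aPD1 it was -0.78 ± 0.37 in aPD1 + aGM-CSF (adjusted p = 0.159), where leaving out replicate 9 of the blocked group brought it past the threshold (-1.06, adjusted p = 0.0470). The values of -0.48 ± 0.35 in aPD1 + aIL2RB and -0.55 ± 0.35 with both blockades did not pass (adjusted p = 0.337 and 0.266). Its ligand gene Flt3l shares 22.1% of its exon bases with the overlapping gene model Gm45713, whose row cannot be read as Flt3l.

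Xcl1 (ENSMUSG00000026573, chr1:164931644-164935527) encodes the chemokine that XCR1 binds. The isotype tumors read 1.65, 2.37, 1.71, 0.929 and 0.887 CPM. With aPD1 the range was 0.559 to 3.41 CPM around a median of 0.753, and the value against isotype was -0.15 ± 0.59 (adjusted p = 0.911). It was 0.430 to 1.91 CPM (median 0.962) with aPD1 + aGM-CSF, 0 to 0.791 CPM (median 0.426) with aPD1 + aIL2RB and 0 to 0.527 CPM (median 0.105) with both blockades, the last 2 groups resting on at most 16 reads in a tumor. Both groups given aIL2RB lay below every isotype tumor, and the group given both blockades also lay below every aPD1 tumor. Xcl1 fell by 1.87 ± 0.51 from aPD1 to aPD1 + aIL2RB (adjusted p = 0.00505, and 0.0571 without aPD1 replicate 1) and by 2.74 ± 0.55 from aPD1 to both blockades (adjusted p = 0.000188). The value of -0.39 ± 0.52 in aPD1 + aGM-CSF was not called (adjusted p = 0.695). Xcl1 was the one member called against isotype in the groups given aIL2RB, 2.02 ± 0.53 lower in aPD1 + aIL2RB (adjusted p = 0.0253) and 2.89 ± 0.56 lower with both blockades (adjusted p = 0.00133). The first of these calls was lost without isotype replicate 2 (adjusted p = 0.0934) or 3 (0.0532), and within each set (adjusted p = 0.0656 and 0.176). Within the second set 6 members were called for both blockades against isotype, where 11.4% of all genes were called. Xcr1 (-1.98), Batf3 (-1.97), Irf8 (-0.62), Itgax (-1.22) and Xcl1 (-2.91) were lower there and Zbtb46 (0.35) higher, with adjusted p from 0.00853 to 0.0445. The aPD1 tumors of the 2 sets did not overlap, with 0.905 to 3.41 CPM in the first set and 0.559 to 0.602 CPM in the second. The count could include reads of a gene model on the opposite strand that overlaps it.

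Cd209a (ENSMUSG00000031494, chr8:3743397-3748984), which encodes a lectin of type 2 conventional dendritic cells and monocyte-derived cells, was near the detection floor. The isotype tumors had 0.519, 0.228, 0.302, 0 and 0 CPM. It had 0 to 17 reads per tumor, with a median of 2 and no read in 12 of the 42 tumors, and all groups overlapped. The values were 0.87 ± 0.87 for aPD1 against isotype (adjusted p = 0.584) and, against aPD1, -1.83 ± 0.80 in aPD1 + aGM-CSF (adjusted p = 0.121), -0.64 ± 0.71 in aPD1 + aIL2RB (adjusted p = 0.554) and -1.56 ± 0.74 with both blockades (adjusted p = 0.117), the last of which passed without replicate 3 of that group (-2.15, adjusted p = 0.0342). Without 1 tumor the value for aPD1 against isotype ran from 0.51 to 1.52. The summed counts of Xcr1 and Clec9a were set against Cd209a within each tumor, with 0.5 added to each. The mean log2 ratio was 7.21 ± 2.18 (SD) in isotype tumors and 6.13 ± 1.66 with aPD1 alone, and 7.82 ± 1.55 after aGM-CSF, 6.43 ± 1.49 after aIL2RB and 7.22 ± 1.42 after both. None of the 10 pairs passed a two-sided permutation test, exact in 9 of them, and the lowest adjusted p was 0.335. Clec9a made up most of the sum, with a median count of 285 against 38 for Xcr1, and varied little between tumors. This ratio therefore mostly sets a flat gene against the few reads of Cd209a, and it cannot decide whether the balance of the cell types changed. With Xcr1 alone as numerator the ratio was 2.78 lower in aPD1 + aIL2RB than in aPD1 + aGM-CSF (adjusted permutation p = 0.00917), whereas the ratio with Clec9a included was 1.39 lower (adjusted permutation p = 0.335). Cd209a had no read in 4 of the 9 aPD1 + aGM-CSF tumors, so the sizes of these differences depend on the 0.5 added.

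**Figure D2:**
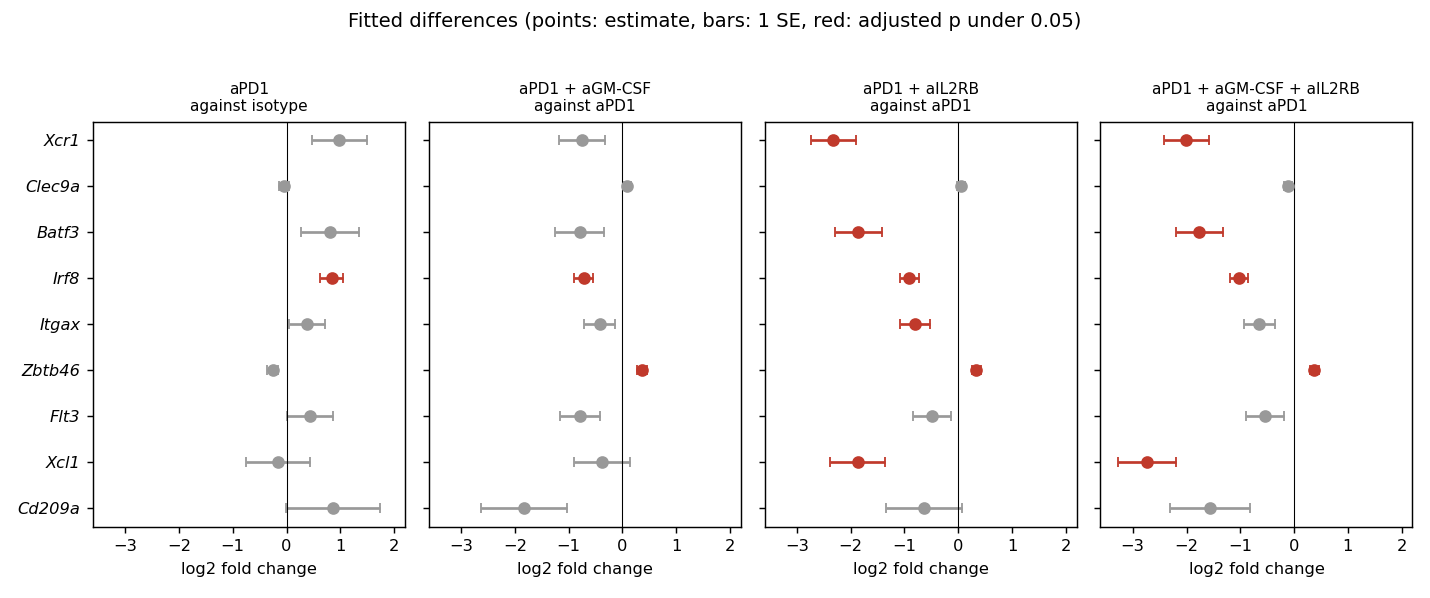
Log2 fold changes (x axis) of the 9 genes (y axis) in 4 comparisons, 1 panel each. Points are edgeR estimates, bars 1 SE, and red marks an adjusted p under 0.05. Irf8 alone is red for aPD1 against isotype at 0.84, and Zbtb46 is the one red point to the right of 0 in the other 3 panels.

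Counted over the comparisons, 1 of the 9 members was higher (Irf8) and none lower in aPD1 than in isotype, where 6.17% of all genes tested were higher and 2.54% lower. For aPD1 + aGM-CSF against aPD1, 1 was higher and 1 lower, against 4.77% higher and 8.75% lower of all genes. The share of members in both comparisons lay near that of all genes. Without aPD1 replicate 4 the share of all genes called in either direction went from 8.71% to 3.96% and from 13.5% to 7.08% in these comparisons. In aPD1 + aIL2RB 5 of the 9 were lower than in aPD1 and 1 higher, where 14.5% of all genes were lower and 13% higher. With both blockades 4 were lower and 1 higher, against 14.3% lower and 13.1% higher. The median log2 difference of the 9 members was 0.43, -0.72, -0.80 and -1.03 in these 4 comparisons, beside medians of -0.00, 0.01, 0.00 and 0.01 over all genes. The 3 comparisons against aPD1 share the same 6 aPD1 tumors.

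The remaining pairs gave few calls. Between aPD1 + aGM-CSF and isotype no member was called by edgeR or by DESeq2, none had an unadjusted p under 0.05, and 0% of all genes were called higher and 0% lower. In aPD1 + aIL2RB against isotype 1 member was lower (Xcl1), beside 1.51% of all genes lower and 1.7% higher, and Xcr1 had a value of -1.34 ± 0.45 (adjusted p = 0.0880, and 0.0408 without aPD1 + aIL2RB replicate 9). With both blockades against isotype 1 was lower (Xcl1), beside 4.51% lower and 5.69% higher, and Xcr1 had -1.02 ± 0.45 (adjusted p = 0.135, and 0.0277 without replicate 1 of the blocked group). Against aPD1 + aGM-CSF, Xcr1 was 1.57 ± 0.39 lower in aPD1 + aIL2RB (adjusted p = 0.0247), the 1 member called beside 0.898% of genes lower and 0.626% higher. That call was lost without aPD1 + aGM-CSF replicate 1 (adjusted p = 0.0731) or 2 (0.0563). Xcl1 had -1.48 ± 0.47 there (adjusted p = 0.106). In the group given both blockades Xcl1 was 2.35 ± 0.51 lower than in aPD1 + aGM-CSF (adjusted p = 0.0101), the 1 member called beside 1.15% of genes lower and 0.98% higher. Xcr1 had -1.25 ± 0.39 there (adjusted p = 0.0729), and Irf8, at -0.31 ± 0.16 (adjusted p = 0.305), passed without replicate 1 of the group given both (-0.46, adjusted p = 0.0381). Xcr1 was called without replicate 1 or 4 of the group given both (adjusted p = 0.00737 and 0.0464) or without aPD1 + aGM-CSF replicate 5 (0.0441). Between both blockades and aPD1 + aIL2RB no member was called by edgeR or DESeq2, 1 had an unadjusted p under 0.05, and 0.00591% of genes were higher and 0% lower.

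In the group given both blockades Irf8, Itgax and Xcr1 had lower medians in the second set of tumors than in the first. Irf8 ran from 34.7 to 83.6 CPM in the 6 tumors of the first set, with a median of 45.3, and from 25.7 to 42.1 CPM in the 5 of the second, with a median of 26.9. Itgax ran from 30.8 to 94.4 CPM in the first set and from 9.96 to 37.9 CPM in the second, so that the sets overlapped only between 30.8 and 37.9 CPM. Xcr1 ran from 0.784 to 4.51 CPM in the first and from 0.0890 to 1.45 CPM in the second. The fall of Irf8 from aPD1 to both blockades was -0.51 ± 0.20 within the first set (adjusted p = 0.101) and -1.67 ± 0.20 within the second (adjusted p = 3.68e-08), and the sets differed by -1.16 ± 0.29 (adjusted p = 0.00934), in a comparison where 9.18% of all genes differed between sets. For Itgax these values were -0.10 ± 0.31 (adjusted p = 0.885) and -1.70 ± 0.32 (adjusted p = 6.25e-05), differing by -1.60 ± 0.45 (adjusted p = 0.0208). Xcr1 gave -1.22 ± 0.50 (adjusted p = 0.128) and -3.45 ± 0.56 (adjusted p = 6.76e-06), and Batf3 -0.88 ± 0.58 (adjusted p = 0.387) and -3.10 ± 0.64 (adjusted p = 0.000206). Their differences between sets were not called (adjusted p = 0.0629 and 0.109). In aPD1 + aIL2RB, by contrast, Xcr1 was lower than in aPD1 within both sets, by 2.19 ± 0.51 (adjusted p = 0.00239) and 2.44 ± 0.53 (adjusted p = 0.000674). Other calls against aPD1 were also lost within a set, those of Zbtb46 among them. The fall of Irf8 in aPD1 + aGM-CSF was -0.48 ± 0.20 in the first set (adjusted p = 0.253) and -0.94 ± 0.21 in the second (adjusted p = 0.00198). Batf3 in aPD1 + aIL2RB against aPD1 gave -1.57 ± 0.59 (adjusted p = 0.0593) and -2.07 ± 0.60 (adjusted p = 0.00966), and Itgax -0.70 ± 0.31 (adjusted p = 0.109) and -0.92 ± 0.32 (adjusted p = 0.0299). Xcl1 was called in the first set, at -2.29 ± 0.64 (adjusted p = 0.00984), and had -0.98 ± 0.74 in the second (adjusted p = 0.363). With both blockades Xcl1 gave -3.13 ± 0.68 (adjusted p = 0.00387) and -1.88 ± 0.79 (adjusted p = 0.0684). None of these differences between sets was called. Ptprc moved with the values for both blockades: it ran from 124.9 to 367.8 CPM in the first set and from 86.9 to 129.7 CPM in the second, and the part of leukocyte content in the difference was not tested.

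**Figure D3:**
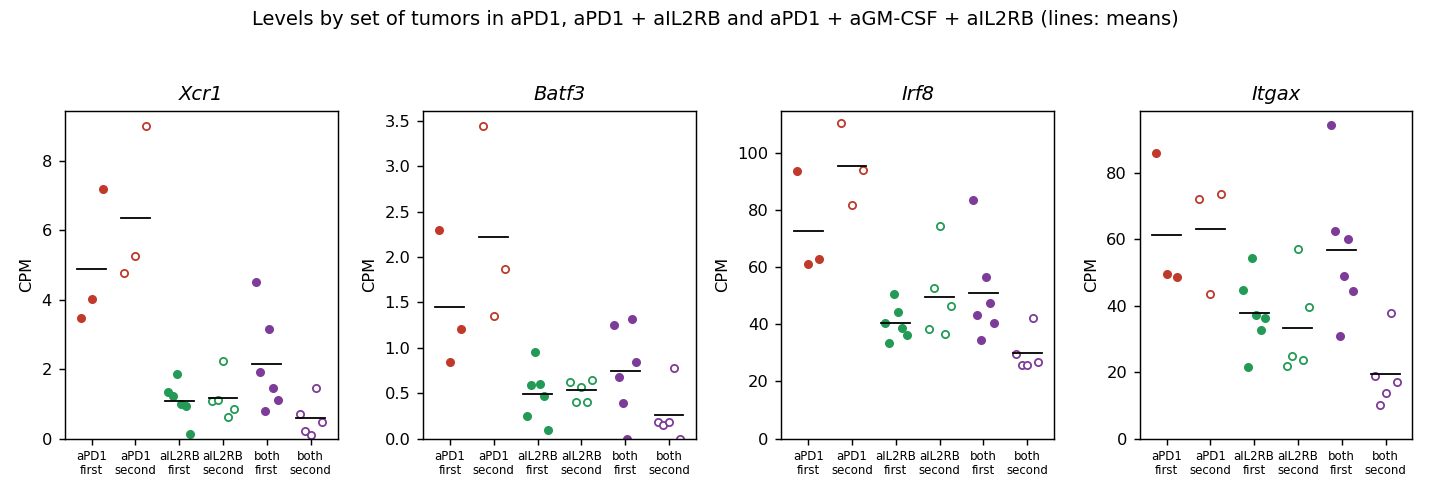
CPM (y axis, from 0) of Xcr1, Batf3, Irf8 and Itgax by set of tumors (x axis) in aPD1, aPD1 + aIL2RB and the group given both blockades. Each point is a tumor and lines are means. With both blockades Itgax lies between 30.8 and 94.4 CPM in the first set and between 9.96 and 37.9 CPM in the second.

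Since Ptprc also moved with treatment, the 9 members were set against it within each tumor as a log2 ratio of counts, with 0.5 added to each. The measure was chosen after the members' values had been seen and was first computed for the 5 members called lower in aPD1 + aIL2RB, so its p-values are not independent of those calls. Differences were tested by two-sided exact permutation over tumors and adjusted over the 36 tests. The Xcr1 to Ptprc ratio was 0.03 higher with aPD1 than with isotype (exact adjusted p = 0.975). It was 1.18 lower in aPD1 + aIL2RB than in aPD1 and 1.42 lower with both blockades (exact adjusted p = 0.0184 for each), whereas aPD1 + aGM-CSF gave -0.06 (exact adjusted p = 0.953). The Irf8 to Ptprc ratio was called once and upward. It was 0.36 higher in aPD1 + aIL2RB than in aPD1 (exact adjusted p = 0.0184), and the values for aPD1 against isotype, for aPD1 + aGM-CSF and for both blockades were -0.12, 0.09 and 0.00 (exact adjusted p = 0.224, 0.381 and 0.975). The Itgax to Ptprc ratio was 0.58 lower with aPD1 than with isotype, 0.39 higher in aPD1 + aGM-CSF than in aPD1 and 0.44 higher in aPD1 + aIL2RB than in aPD1 (exact adjusted p = 0.0184 for each). With both blockades it was 0.18 higher (exact adjusted p = 0.505). The ratios of Clec9a and Zbtb46 ran opposite to Ptprc itself. Clec9a was called in none of these comparisons, so its ratio restates the change of Ptprc and is no separate result on Clec9a. That of Clec9a was 0.98 lower with aPD1 than with isotype and 0.88, 1.32 and 0.98 higher in the 3 blockade groups than in aPD1 (exact adjusted p from 0.00240 to 0.0197). That of Zbtb46 was 1.17 lower and 1.15, 1.60 and 1.46 higher (exact adjusted p from 0.00240 to 0.0184). Batf3, Xcl1, Flt3 and Cd209a passed in none of the 4 comparisons, with exact adjusted p from 0.0652 for Xcl1 with both blockades (-1.90) to 0.975. Permuted within the sets of tumors, Xcl1 passed for aPD1 against isotype (-1.51, permutation adjusted p = 0.0235) and for both blockades against aPD1 (-1.94, permutation adjusted p = 0.0487), and the other 34 tests kept their side of the threshold.

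**Figure D4:**
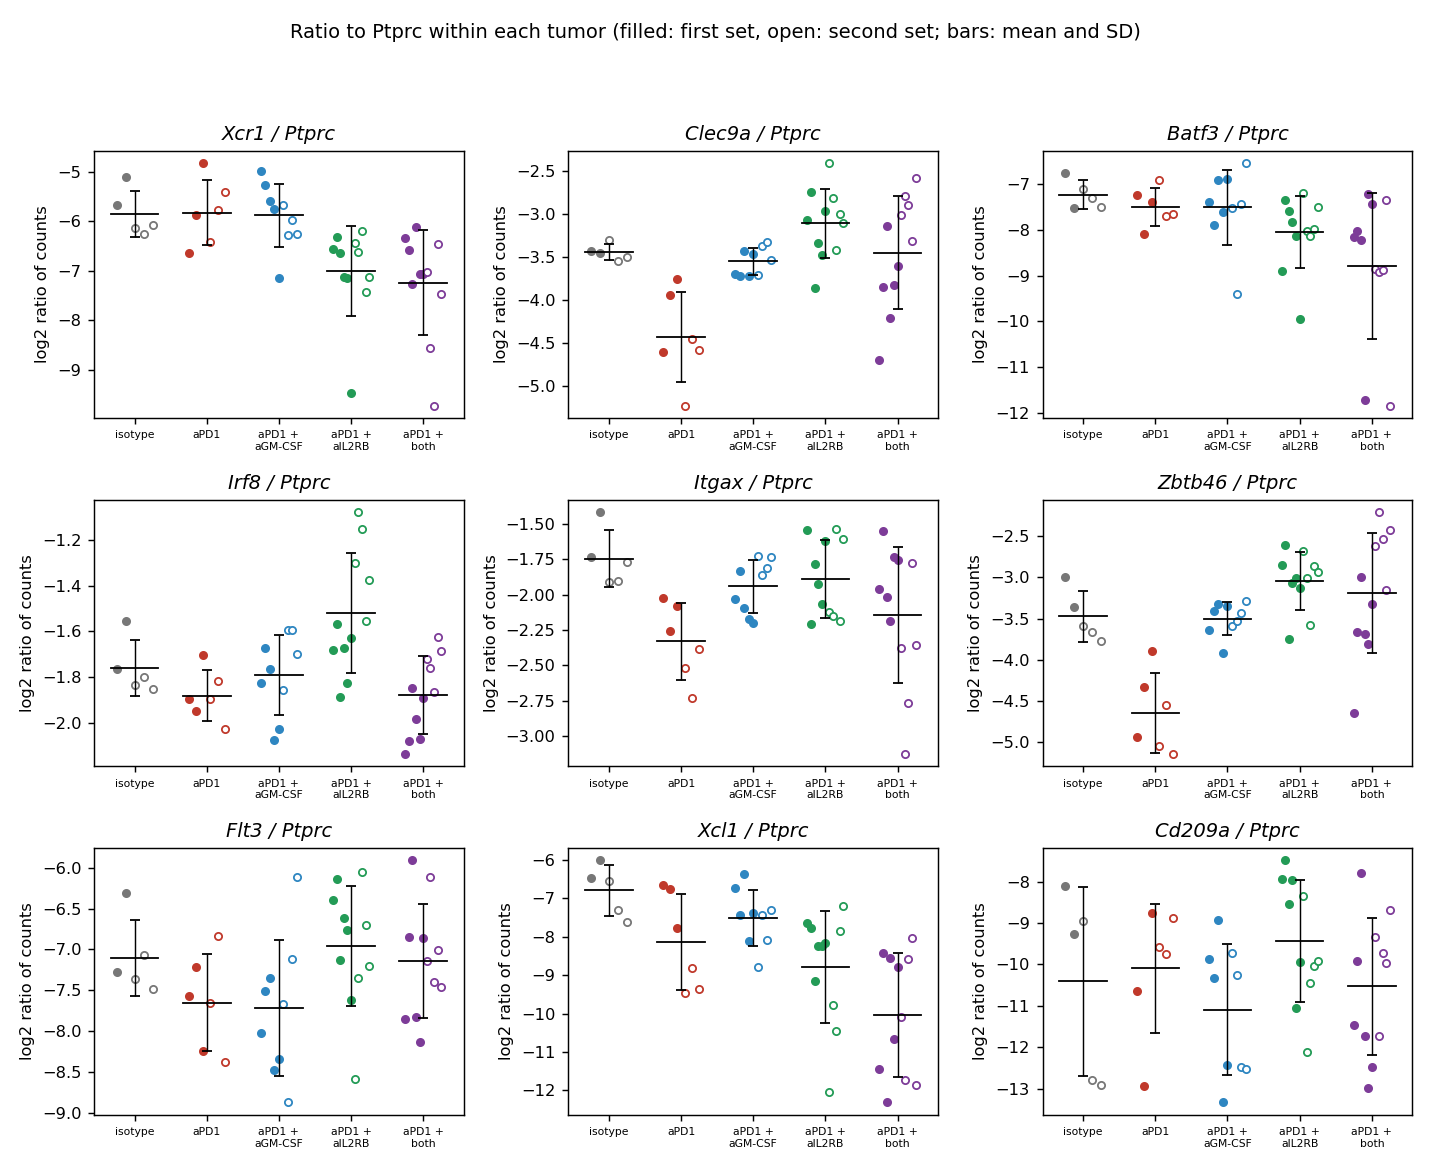
Log2 ratio of counts of the 9 measured members to Ptprc (y axis) in each group (x axis, with aPD1 + both standing for aPD1 + aGM-CSF + aIL2RB). Points are tumors, filled for the first set and open for the second, and bars show the mean and SD. Against aPD1, the Xcr1 ratio is 1.18 lower in aPD1 + aIL2RB, the Irf8 ratio 0.36 higher and the Clec9a ratio 1.32 higher. Clec9a itself was not called there, and its ratio restates the change of Ptprc.

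Across the 42 tumors Xcr1 and Irf8 rose and fell together (Pearson r = 0.82, Spearman rho = 0.87), and after removal of group and set means r was 0.66. Xcr1 with Ptprc gave r = 0.80 and rho = 0.87 (0.57 after removal), and Irf8 with Ptprc gave 0.92 and 0.88 (0.91 after removal). Xcr1 with the T cell marker Cd8a gave 0.84 and 0.88 (0.45 after removal). Batf3 gave 0.66 and 0.70 with Xcr1 (0.21 after removal) and 0.69 and 0.79 with Cd8a (0.25 after removal). Xcr1 with its own ligand gene Xcl1 gave 0.56 and 0.62, and 0.06 after removal of group and set means. Clec9a with Xcr1 gave 0.25 and 0.29, and with Ptprc 0.01 and 0.15. These correlations are descriptions over 42 tumors that share treatments, depth and tumor composition. The 5 genes most like Xcr1 were Cyfip2, Spn, Grap2, Gbp2b and Itgal, with r from 0.89 to 0.90 and, after removal of group and set means, from 0.70 to 0.76. Spn and Itgal encode the leukocyte surface proteins CD43 and CD11a. The genes most like Clec9a were Kif23, Ddx39b, Dnmt1, Smc1a and Rdh10, with r from 0.49 to 0.56 (0.20 to 0.50 after removal). Of these, Kif23, Dnmt1 and Smc1a serve cell division and DNA replication. Those most like Xcl1 were Cish, Gzmc, Rasgrp1, Il18r1 and Cd8b1, with r from 0.70 to 0.73 (0.13 to 0.38 after removal), among them the granzyme gene Gzmc and the CD8 beta chain gene Cd8b1. For Cd209a, Gm43328, Ttc7b, Birc3, Zfp385a and Trf came first with r from 0.50 to 0.57 (0.25 to 0.61 after removal).

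**Figure D5:**
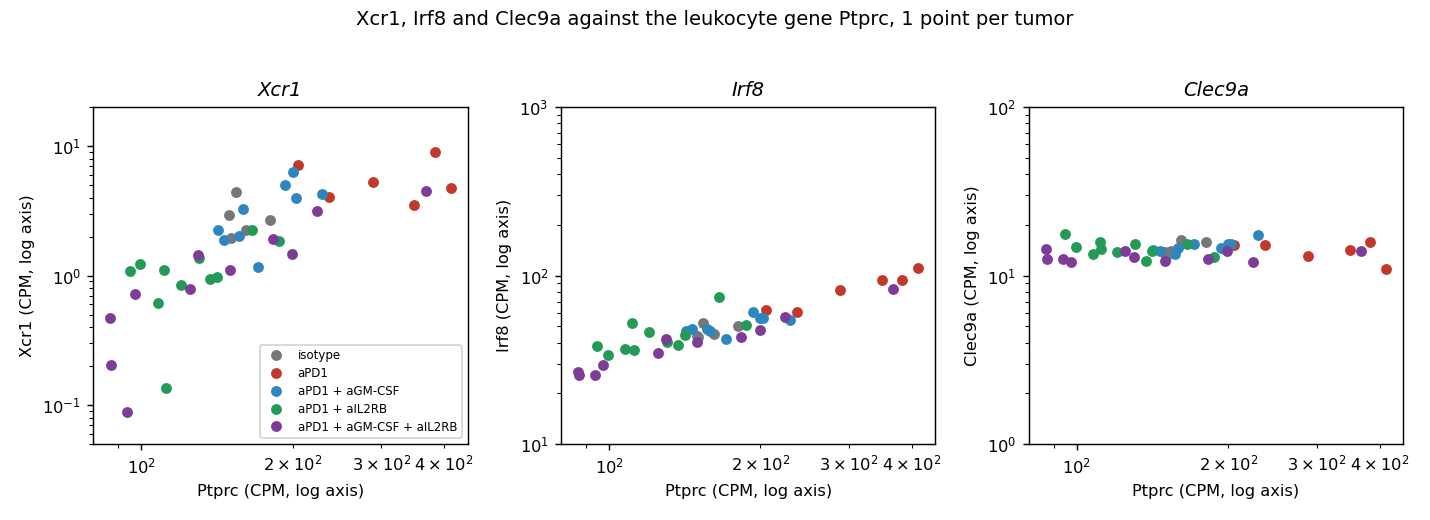
Xcr1, Irf8 and Clec9a (y axes, CPM, log scale) against Ptprc (x axes, CPM, log scale) in the 42 tumors, 1 point each, colored by group. Irf8 follows Ptprc (r = 0.92), Xcr1 follows it with lower values in the groups given aIL2RB, and Clec9a does not vary with it (r = 0.01).

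Of all genes 6.17% were higher in aPD1 than in isotype, and, against aPD1, 8.75%, 14.5% and 14.3% were lower and 4.77%, 13% and 13.1% higher in aPD1 + aGM-CSF, aPD1 + aIL2RB and both. The 12 further listed genes that mark type 1 dendritic cells or serve their antigen handling were all tested. In aPD1 against isotype 4 were higher and none lower: Ifi205 by 1.78 ± 0.38 (adjusted p = 0.00289), Rab7b by 0.81 ± 0.23 (adjusted p = 0.0216), Ppt1 and Wdfy4. WDFY4 is needed for cross-presentation of cell-associated antigen. Against aPD1, 5 were lower in aPD1 + aGM-CSF, and 7 were lower and 1 higher in each group given aIL2RB. Cadm1, an adhesion gene of type 1 cells, was 1.42 ± 0.23 lower in aPD1 + aIL2RB (adjusted p = 1.16e-05) and 0.98 ± 0.24 lower with both (adjusted p = 0.00141). Naaa, a lipid amidase gene, was 0.71 ± 0.11 and 0.89 ± 0.11 lower in these groups (adjusted p = 6.46e-06 and 2.51e-07). Tlr3, the receptor gene for double-stranded RNA, went the other way, 0.21 ± 0.08 and 0.25 ± 0.08 higher (adjusted p = 0.0472 and 0.0176). Itgae and Btla, which T cells also express, did not pass in any of these 4 comparisons. Among the 7 genes lower with aIL2RB, median levels over all tumors were 81.4 CPM for Ppt1, 51.4 for Wdfy4, 50.25 for Naaa and 41.9 for Cadm1. They were 25.97 CPM for Rab7b, 11.1 for Ifi205 and 0.506 for Tlr11, beside 1.92 for Xcr1. The part of macrophages and other cells in the calls of this list was not tested.

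Among 13 transcription factor genes of dendritic cell development, 5 were higher with aPD1 than with isotype (6.17% of all genes) and 8 were lower in each of the 3 blockade groups than in aPD1 (8.75%, 14.5% and 14.3% of all genes). Spi1, which encodes the myeloid factor PU.1, was 0.62 ± 0.15 higher with aPD1 (adjusted p = 0.00863) and 0.93 ± 0.12 lower in aPD1 + aIL2RB than in aPD1 (adjusted p = 4.72e-07). Irf4, a factor of type 2 cells and of activated lymphocytes, was 2.19 ± 0.36 lower there (adjusted p = 1.15e-05), and Id2, needed for type 1 cells and for innate lymphocytes, 1.01 ± 0.18 lower (adjusted p = 2.79e-05). Nfil3 had -0.12 ± 0.17 (adjusted p = 0.642). Of 12 genes of type 2 cells 7 passed the filter, and 1, Sirpa, was higher with aPD1 than with isotype. Against aPD1, 3 were lower in aPD1 + aGM-CSF (Sirpa, Clec10a and Mgl2). In each group given aIL2RB 4 were lower, these 3 and Ltb, with 1 higher, Tmem176b, in aPD1 + aIL2RB. Ltb was 2.89 ± 0.51 lower in aPD1 + aIL2RB and 2.84 ± 0.51 lower with both (adjusted p = 2.91e-05 and 5.32e-05). The lectin gene Clec10a was 1.42 ± 0.36 lower in aPD1 + aGM-CSF (adjusted p = 0.00693), 1.74 ± 0.35 lower in aPD1 + aIL2RB and 1.81 ± 0.35 lower with both (adjusted p = 0.000156 and 0.000120), and Mgl2 0.89 ± 0.34 and 2.16 ± 0.36 lower (adjusted p = 0.0478 and 1.55e-05). Mgl2 was also lower in aPD1 + aGM-CSF (adjusted p = 0.0210). Cd209a, the type 2 gene among the members, had a median of 2 reads per tumor and was called nowhere. The part of macrophages and lymphocytes in the calls of the transcription factor and type 2 lists was not tested.

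Around the growth factor receptors, 11 of 12 genes passed the filter, 4 were higher with aPD1 than with isotype (6.17% of all genes) and 5 were lower in each of the 3 blockade groups than in aPD1 (8.75%, 14.5% and 14.3% of all genes). The GM-CSF gene Csf2 was the exception to the filter, at 0 in 22 of 42 tumors and at most 13 reads. Its receptor chain gene Csf2rb was 0.98 ± 0.23 higher with aPD1 (adjusted p = 0.00744), 0.92 ± 0.20 lower in aPD1 + aGM-CSF than in aPD1 (adjusted p = 0.00156) and 1.05 ± 0.19 lower in aPD1 + aIL2RB (adjusted p = 3.59e-05). Among 8 tested genes of dendritic cell maturation, of 10 listed, 2 were higher with aPD1 (Cd40 and Cd86) and 6 were lower in each blockade group than in aPD1, with 1 higher, Fscn1, in aPD1 + aIL2RB. The migration receptor gene Ccr7 was 1.39 ± 0.35 lower in aPD1 + aGM-CSF (adjusted p = 0.00581), 0.92 ± 0.33 lower in aPD1 + aIL2RB (adjusted p = 0.0304) and 1.18 ± 0.33 lower with both (adjusted p = 0.00576). Il12b, the subunit gene of the T cell cytokine IL-12, had values of -0.57 to -1.01 against aPD1 that did not pass. Of 10 cross-presentation genes 5 were higher with aPD1 than with isotype, and 5, 7 and 8 were lower in the blockade groups, among them Rac2, 1.48 ± 0.19 lower in aPD1 + aIL2RB (adjusted p = 3.72e-07), with Sec22b 0.17 ± 0.06 higher (adjusted p = 0.0154). Ptprc was 1.29 ± 0.20 lower in that comparison. The part of leukocyte and macrophage content in the maturation and cross-presentation lists was not tested.

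Markers of other cells moved in the same comparisons. All 6 NK cell markers and 6 of 7 T cell markers were lower in aPD1 + aIL2RB than in aPD1, and all 6 and all 7 with both blockades. In aPD1 + aGM-CSF against aPD1, 1 NK marker (Gzma) and 2 T cell markers (Cd8b1 and Trac) were lower. No marker of either list was called in aPD1 against isotype. The summed NK markers ran from 11.3 to 16.1 CPM in isotype tumors and from 10.5 to 30.6 CPM with aPD1 alone. Their range was 8.11 to 14.3 CPM after aGM-CSF, 0.806 to 3.16 CPM after aIL2RB and 0.527 to 5.66 CPM after both. The defining marker Ncr1 was at 0 in 21 of the 42 tumors. For the T cell markers the sums were 30.6 to 55.4, 65.3 to 130.4, 25.8 to 72.2, 3.23 to 29.3 and 0.975 to 68.3 CPM in the same order. Both lists were lower along with Xcl1 and Xcr1 in the groups given aIL2RB than in aPD1, and their part in those results was not tested. From isotype to aPD1 the T cell sums rose without overlap, whereas Xcl1 had -0.15 ± 0.59 (adjusted p = 0.911). Of 9 macrophage markers 8 were higher with aPD1 than with isotype, and 8, 7 and 7 were lower in the 3 blockade groups than in aPD1. Their sums ran from 2806 to 3390 CPM in isotype tumors and from 3252 to 6154 CPM with aPD1 alone. Their range was 2471 to 3020 CPM after aGM-CSF, 2304 to 3234 CPM after aIL2RB and 1933 to 4094 CPM after both. Irf8 was called in the same direction in all 4 comparisons, and Itgax only in aPD1 + aIL2RB against aPD1. Macrophages express both genes, and the part of the macrophage markers in those results was not tested. For monocyte, plasmacytoid, B cell and tumor cell markers the counts were small, and several lay near the shares of all genes (6.17% higher with aPD1, and 8.75%, 14.5% and 14.3% lower in the blockade groups). Of 4 monocyte markers 2 were higher with aPD1 and 2, 3 and 3 were lower in the blockade groups. Of 6 plasmacytoid dendritic cell markers none was higher with aPD1, 2, 1 and 2 were lower in the blockade groups and 1, Tcf4, was higher in each group given aIL2RB. Of 5 B cell markers 1 was higher with aPD1 and 0, 3 and 2 were lower. Of 5 tumor cell markers none was called in aPD1 against isotype or in aPD1 + aGM-CSF against aPD1, 1 was higher in aPD1 + aIL2RB (Shisal2b) and 1 lower with both (Epcam).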

How the data were processed

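Bulk poly(A) RNA of 42 MC38 tumors was sequenced. The authors mapped 100 bp paired-end reads with Bowtie 1.2.3 to founder-strain transcriptomes made with g2gtools 0.2.9 from GENCODE M23 (GRCm38), quantified them with gbrs 0.1.6 and deposited expected counts per gene, of which 15.2% were not whole. Counts were rounded and taken to CPM with TMM. Members were matched through GENCODE M21 symbols. The members, the 13 gene lists and the sets of tumors were chosen with earlier results of these data known.

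Genes were kept by edgeR's filterByExpr (minimum count 10, total 15), and all 10 pairs of 5 groups were tested in 1 edgeR 4.0.16 quasi-likelihood fit (R 4.3.3) with treatment alone and Benjamini-Hochberg adjustment over 16932 genes. The method was tested on simulated data. Ratios within tumors were tested by two-sided permutation, exact under 200000 arrangements and otherwise with 100000 draws (scipy 1.17.1). Correlations used log2 CPM with a prior count of 2, among genes with mean log2 CPM of at least 1. Alternatives were DESeq2 1.42.0, other scalings and filters, the compared groups alone, the replicate number as block, the set as term, each set alone and each tumor left out. Total counts of 7155486 to 24101674 set the precision of low genes.

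Named were all members, of each list at most 4 called genes by adjusted p and genes of a defining role, and the 5 genes most correlated with Xcr1, Clec9a, Xcl1 and Cd209a.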

Additional observations from a re-analysis of the deposited data

Results flagged for a closer look

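Among 27 groups of 4 to 10 tumors examined for a tumor far from the rest (9 genes in 3 groups), 2 held one, where chance flags about 1 in 20. Flt3 in isotype replicate 2 was 1.92 CPM, and the other 4 isotype tumors had 0.944 to 1.10 CPM. Flt3 in aPD1 + aGM-CSF replicate 9 was 2.24 CPM, with a group median of 0.957 CPM.

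The treatment difference of 2 genes differed between the 2 sets of tumors by a test of the difference itself (edgeR interaction of group and set), in each case lower in the second set. The sets were drawn from the data tested and no label names them, so these p-values are not independent of the split. For both blockades against aPD1 the difference between sets was -1.60 ± 0.45 for Itgax (adjusted p = 0.0208) and -1.16 ± 0.29 for Irf8 (adjusted p = 0.00934). For Itgax it was also -1.60 ± 0.41 for both blockades against aPD1 + aGM-CSF (adjusted p = 0.0462), and for Irf8 -1.05 ± 0.25 for both blockades against aPD1 + aIL2RB (adjusted p = 0.0233). Over all genes 9.18%, 0.821% and 1.94% differed between sets in these 3 comparisons, in the order given.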

How the results depend on the processing

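The members called in each comparison were counted again under each alternative. Within the first set the count went from 1 to 0 for aPD1 against isotype, from 2 to 0 for aPD1 + aGM-CSF against aPD1, from 5 to 1 for both blockades against aPD1, from 1 to 0 for aPD1 + aIL2RB against isotype and from 1 to 0 for both against aPD1 + aGM-CSF. Within the second set it went to 1 for aPD1 + aGM-CSF against aPD1, 0 for aPD1 + aIL2RB against isotype, 6 for both against isotype, 0 for aPD1 + aIL2RB against aPD1 + aGM-CSF, 3 for both against aPD1 + aGM-CSF and 1 for both against aPD1 + aIL2RB. Each set holds fewer tumors, and the share of all genes called shifted too. In the order above it went in the first set from 8.71% to 0.0591%, 13.5% to 0.585%, 27.4% to 7.8%, 3.2% to 3.93% and 2.13% to 0.472%. In the second set it was 17.1%, 1.23%, 11.4% (10.2% in all tumors), 0.177% (1.52%), 7.3% and 2.33% (0.00591%). Library size alone gave 2 for aPD1 against isotype, adding Zbtb46 as lower, where all genes called lower went from 430 to 1174 and the share called to 11.5%. The compared groups alone gave 2 there (7.22% of all genes) and for aPD1 + aIL2RB against isotype (2.49%) and against aPD1 + aGM-CSF (2.9%). DESeq2 gave 2 for aPD1 + aIL2RB (2.37%) and for both (3.33%) against aPD1 + aGM-CSF, and the set as a term gave 2 for the latter (4.47%). The cause of these shifts was not tested. Leaving out 1 tumor gave 0 to 2 for aPD1 + aIL2RB against isotype (1.33% to 5.59% of all genes), 1 to 2 for both against isotype (2.86% to 11.9%), 0 to 1 for aPD1 + aIL2RB against aPD1 + aGM-CSF (0.957% to 2.77%) and 1 to 3 for both against aPD1 + aGM-CSF (1.05% to 4.3%). In the other 6 comparisons the count of members stayed within 1.5 times, while the share of all genes fell to 3.96% for aPD1 against isotype and to 7.08% for aPD1 + aGM-CSF against aPD1 without aPD1 replicate 4.

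Same-numbered tumors did not pair: of 67 such pairs 16 had residuals correlated above 0.1. With the replicate number as a block the counts were 1, 2, 5 and 5 for aPD1 against isotype and for the 3 blockade groups against aPD1, beside 10.4%, 12.2%, 28.1% and 31.3% of all genes. The block ended the calls of Itgax in aPD1 + aIL2RB against aPD1 (-0.49, adjusted p = 0.203) and of Xcr1 in aPD1 + aIL2RB against aPD1 + aGM-CSF (-1.34, adjusted p = 0.0750), added Xcl1 in the latter (-1.78, adjusted p = 0.0407) and turned Xcl1 in aPD1 + aGM-CSF against aPD1, not called, to 0.21.

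Signs also turned for values that were not called. Within the first set, aPD1 against isotype gave 0.097 for Clec9a, -0.11 for Flt3, 0.094 for Xcl1 and -0.75 for Cd209a, aPD1 + aIL2RB against aPD1 gave -0.093 for Clec9a and 0.70 for Cd209a, and both against aPD1 gave 0.035 for Flt3. Xcl1 in aPD1 + aGM-CSF against aPD1 was 0.24 within the second set. Without 1 tumor, aPD1 against isotype ran from -0.087 to 0.016 for Clec9a and -0.66 to 0.070 for Xcl1, Clec9a in aPD1 + aIL2RB from -0.020 to 0.083 and Xcl1 in aPD1 + aGM-CSF from -0.55 to 0.12. The Xcr1 to Ptprc ratio of aPD1 against isotype was -0.011 within the sets. The ratio of type 1 to type 2 genes with Xcr1 alone turned to -1.84 and -0.98 for aPD1 + aIL2RB and both against aPD1 and to -1.27 for both against isotype, and passed at -2.78 for aPD1 + aIL2RB against aPD1 + aGM-CSF. Both against isotype was -0.027 with 1 added and ran from -0.56 to 0.61 without 1 tumor, and aPD1 + aIL2RB against aPD1 from -0.0009 to 0.94. Depth limits Batf3, Xcr1, Xcl1, Flt3 and Cd209a, with median counts of 38 or fewer.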
